A study of Mus musculus with 6 samples.

Results

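The comparison sets skeletal muscle of LTKOFstL/L mice against skeletal muscle of LDKO mice and asks what the loss of hepatic Fst adds in muscle when the liver already lacks Irs1 and Irs2. It takes 4 of the 6 RNA-seq libraries of the series, 2 per genotype, chosen by the genotype in the sample labels. LDKO mice carry floxed Irs1 and Irs2 alleles (Irs1L/L, Irs2L/L) and CreAlb, a Cre recombinase under the albumin promoter, which is active in hepatocytes. LTKOFstL/L mice came from a cross of LDKO mice with FstL/L mice, which have loxP sites around exons 2 to 5 of Fst and were obtained from another laboratory. Both groups thus share the floxed Irs1 and Irs2 alleles and the albumin Cre and differ by the floxed Fst allele. The other 2 libraries are Control, described as Loxp with no further allele given, and serve below as reference values and in the estimate of the spread. All mice were male. The diet is unsettled, being high fat in the labels and chow between weeks 5 and 16 in the series description. Neither the muscle taken nor whether each library is a separate animal is given in the labels, so p-values measure only the spread between these libraries.

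Follistatin is a secreted protein that binds activins and myostatin and keeps them from their receptors. It is made in many tissues, and the liver is a main source of the circulating protein. In muscle, myostatin and activins signal through Smad2 and Smad3 and restrain growth. Insulin and IGF1 act through Akt, which keeps FoxO transcription factors out of the nucleus, and FoxO factors drive the genes of protein breakdown and autophagy. Fst, Irs1 and Irs2 were deleted in the liver, so their transcripts in muscle do not check the labels.

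Values are log2 expression with each gene centred on its median over the 6 libraries, so 0 is the middle of a gene's own range and levels cannot be compared between genes. A change is the mean of LTKOFstL/L minus the mean of LDKO on this log2 scale, given with its standard error (SE) from limma over n = 2 libraries per group. The words rose and fell mark genes whose p, adjusted by the Benjamini-Hochberg method over all 17087 tested genes, was under 0.05. The depth of the libraries is unknown. One read weighed less in LDKO (1.81 and 1.76 scaled units) than in LTKOFstL/L (2.12 and 2.11), and 24045 to 24686 genes were above the floor of the values in each of the 6 libraries. The LDKO libraries differed more from each other than the LTKOFstL/L libraries did, with a median absolute difference per gene of 0.34 against 0.23. The 14 skeletal muscle markers were all at a log2 level of at least 8 in each library and had a median change of −0.11. None passed in limma, and Acta1, the skeletal actin gene, changed by 0.37 ± 0.15 (adjusted p = 0.24).

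In LTKOFstL/L muscle, transcripts of the atrophy ubiquitin ligases Fbxo32 and Trim63, of acyl-CoA thioesterases and of the autophagy gene Gabarapl1 were lower than in LDKO muscle. Transcripts of Igfbp5, an IGF-binding protein, of the polyamine enzyme gene Amd1, of the transferrin receptor gene Tfrc and of fatty acid synthase, Fasn, were higher. Fasn differed between the LTKOFstL/L libraries (4.62 and 2.35) and did not pass when only LDKO and LTKOFstL/L were fitted. Altogether 182 genes rose and 211 fell, which is 2.3% of the tested genes, 1.07% higher and 1.23% lower. Of these, 148 risen and 164 fallen genes had at least a 2-fold change, and 45 and 72 had at least a 4-fold change. An unadjusted p under 0.05 was reached by 3208 genes. Counts of passing list members below are to be read against the 2.3%, 1.07% and 1.23% of all tested genes. A single passing member is no result about its list. In 186 of the 393 genes that passed, LTKOFstL/L was the genotype whose libraries alone lay beyond all 4 others. In 13 this was LDKO, and in 194 the Control libraries lay between the other groups without overlap. In all 393 the LTKOFstL/L and LDKO libraries did not overlap, so the selection sets part of this split. The same split was not counted over all tested genes.

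**Figure D1:**
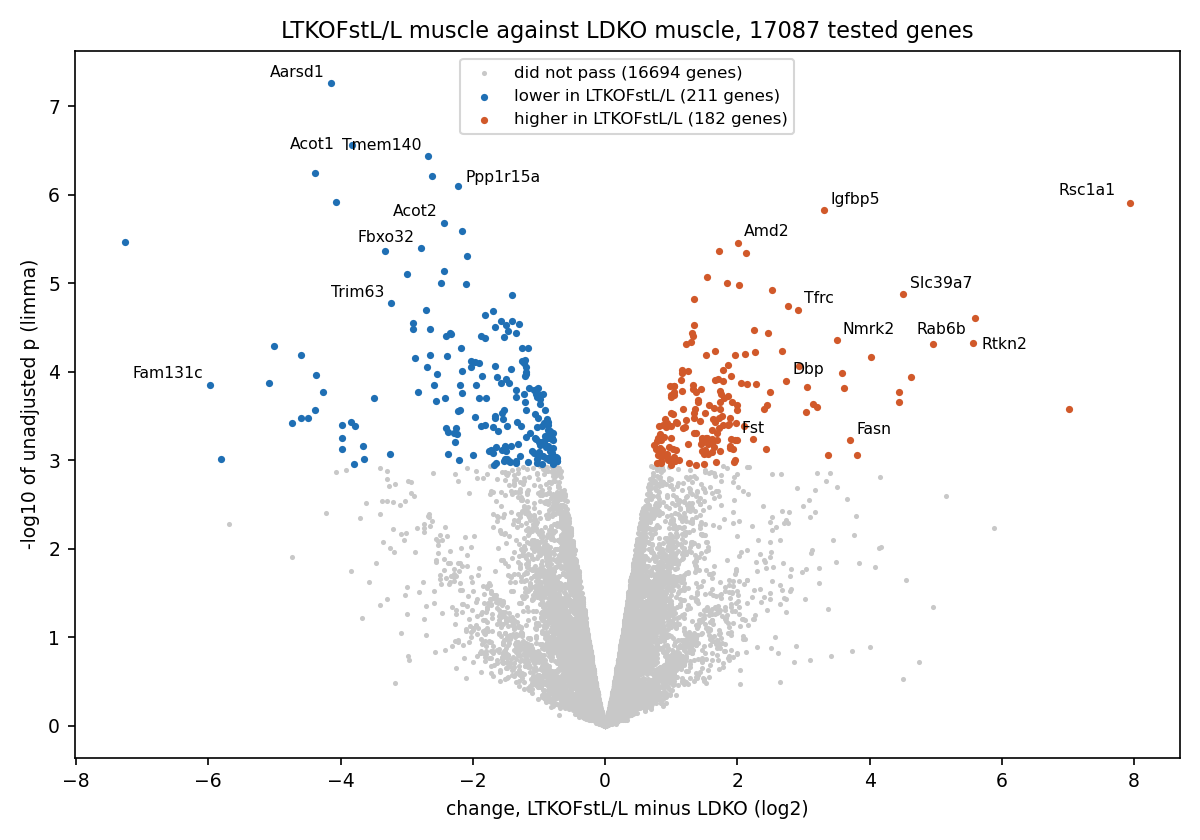
Each point is 1 of 17087 tested genes, with the log2 change of LTKOFstL/L against LDKO muscle on the x axis and −log10 of the unadjusted limma p on the y axis. Orange points are the 182 genes that rose and blue points the 211 that fell; Aarsd1, Acot1 and Tmem140 stand among the highest points on the left and Igfbp5 and Rsc1a1 on the right.

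The count rested on the LTKOFstL/L libraries. Without LTKOFstL/L 1 it was 11 higher and 22 lower, and without LTKOFstL/L 2 it was 20 higher and 22 lower, each with a lone LTKOFstL/L library assumed to vary like the other groups. Without LDKO 1 it was 167 and 213, and without LDKO 2 it was 397 and 292. All 393 genes kept their direction in each of these fits. Their LTKOFstL/L and LDKO libraries did not overlap, so leaving out 1 library could not reverse a sign. The lone library of a group adds no spread in these fits. The call itself held without each of the 4 libraries in turn for 21 genes, 5 higher and 16 lower. Of these, 8 were predicted genes or clones without a gene name. The rest were Aarsd1, Acot1, Acot2, Acss1, Fbxo32, Gabarapl1, Ppp1r15a, Tbc1d4 and Tmem140, which fell, and Amd2, Igfbp5, Rsc1a1 and Tirap, which rose. Tirap, an adaptor of Toll-like receptor signalling, changed by 1.72 ± 0.14 (adjusted p = 0.00455). With a single variance prior in place of the strata of level, 22 genes were higher and 31 lower, and 17 of the 21 genes were among those. With a spline trend of the prior over level, 9 of the 21 passed, among them Acss1, Amd2, Igfbp5 and Tirap. Under that trend the adjusted p was 0.0855 for Aarsd1, 0.0705 for Acot1, 0.0813 for Acot2, 0.0701 for Fbxo32, 0.0747 for Gabarapl1, 0.0686 for Ppp1r15a, 0.102 for Tbc1d4, 0.0771 for Tmem140 and 0.359 for Rsc1a1. Of the 80 passing genes that the text or its naming rule picks out, 19 passed with a single prior, 37 with the spline trend, 15 with LTKOFstL/L 1 left out and 18 with LTKOFstL/L 2 left out.

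Fst (ENSMUSG00000021765, GRCm38 chromosome 13, 114452290 to 114458951, minus strand) stood at −1.23 and −0.32 in LDKO muscle, at 1.38 and 1.02 in LTKOFstL/L muscle and at 0.0 in both Control libraries. It was higher in both LTKOFstL/L libraries than in any other, with a change of 1.97 ± 0.35 (SE, adjusted p = 0.0358). The gene-level value does not separate the floxed exons from the rest. The Fst call was lost with a single prior (adjusted p = 0.116 in limma), the spline trend, a block for the replicate number or no level filter. It was also lost when only LDKO and LTKOFstL/L were fitted, and without either Control library. Without LDKO 1 (change 1.51), LTKOFstL/L 1 (1.79) or LTKOFstL/L 2 (2.15) it was lost too. Irs1 changed by −0.05 ± 0.25 (adjusted p = 0.937). Irs2, the other insulin receptor substrate, stood at −0.69 and 0.69 in LDKO and at −1.42 and −1.48 in LTKOFstL/L. Its change of −1.45 ± 0.39 did not pass (adjusted p = 0.111). The change was −2.14 without LDKO 1 and −0.76 without LDKO 2. In those fits the lone LDKO library adds no spread, so they do not test whether Irs2 differs.

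Among 32 tested ligands, receptors and antagonists of the follistatin family, Fst rose and 0 fell, with a median change of 0.33 and a range from −1.0 to 2.04, against a median of 0.0 over all tested genes. The median was 0.08 without LDKO 1, 0.39 without LDKO 2, 0.16 without LTKOFstL/L 1 and 0.43 without LTKOFstL/L 2. Among the ligands, Gdf11, a close relative of myostatin, stood at −0.08 and −0.09 in LDKO against 1.13 and 1.15 in LTKOFstL/L, a change of 1.22 ± 0.26 that just missed the threshold (adjusted p = 0.0552). The myostatin gene Mstn changed by 0.49 ± 0.22 (adjusted p = 0.3) and Tgfb2 by 1.01 ± 0.23 (adjusted p = 0.0753). Among the receptors, Acvr2b, which binds myostatin and activins, changed by −0.96 ± 0.32 (adjusted p = 0.17) and the type I receptor gene Acvr1b by −0.78 ± 0.21 (adjusted p = 0.109). The follistatin-like gene Fstl1 changed by 0.81 ± 0.23 (adjusted p = 0.125). Nog, which encodes the BMP antagonist noggin, changed by 0.57 ± 0.27 (adjusted p = 0.321). Without LDKO 1 the change was 1.16 for Fstl1 and 1.02 for Nog. LDKO stood at 0.14 and −0.56 for Fstl1 and at 0.15 and −0.75 for Nog. That fit keeps only the lower LDKO library, which adds no spread, so it does not test whether these genes differ. With LTKOFstL/L 1 or LTKOFstL/L 2 left out, 0 members of the family passed in limma.

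Of 20 tested Smad transducers and targets, 1 rose and 2 fell (median −0.08). Smad3, which carries the activin, myostatin and TGF-beta signal to the nucleus, stood at −1.73 and −1.11 in LDKO, 0.22 and 0.07 in LTKOFstL/L and −0.07 and 0.26 in Control. LDKO alone was low, and LTKOFstL/L overlapped Control. The change was 1.57 ± 0.23 (adjusted p = 0.0239). Cdkn1a, which encodes the cell cycle inhibitor p21, fell by 2.19 ± 0.30 (adjusted p = 0.0199), and Tgif1, a transcriptional repressor that binds Smad proteins, fell by 1.81 ± 0.29 (adjusted p = 0.0301). Both were lower in the LTKOFstL/L libraries than in the 4 others. None of the 3 passed without LTKOFstL/L 1 (adjusted p = 0.152 for Smad3, 0.106 for Cdkn1a and 0.139 for Tgif1) or LTKOFstL/L 2 (0.113, 0.0936 and 0.149), and Cdkn1a also failed without LDKO 1 (0.0669) or LDKO 2 (0.0633).

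**Figure D2:**
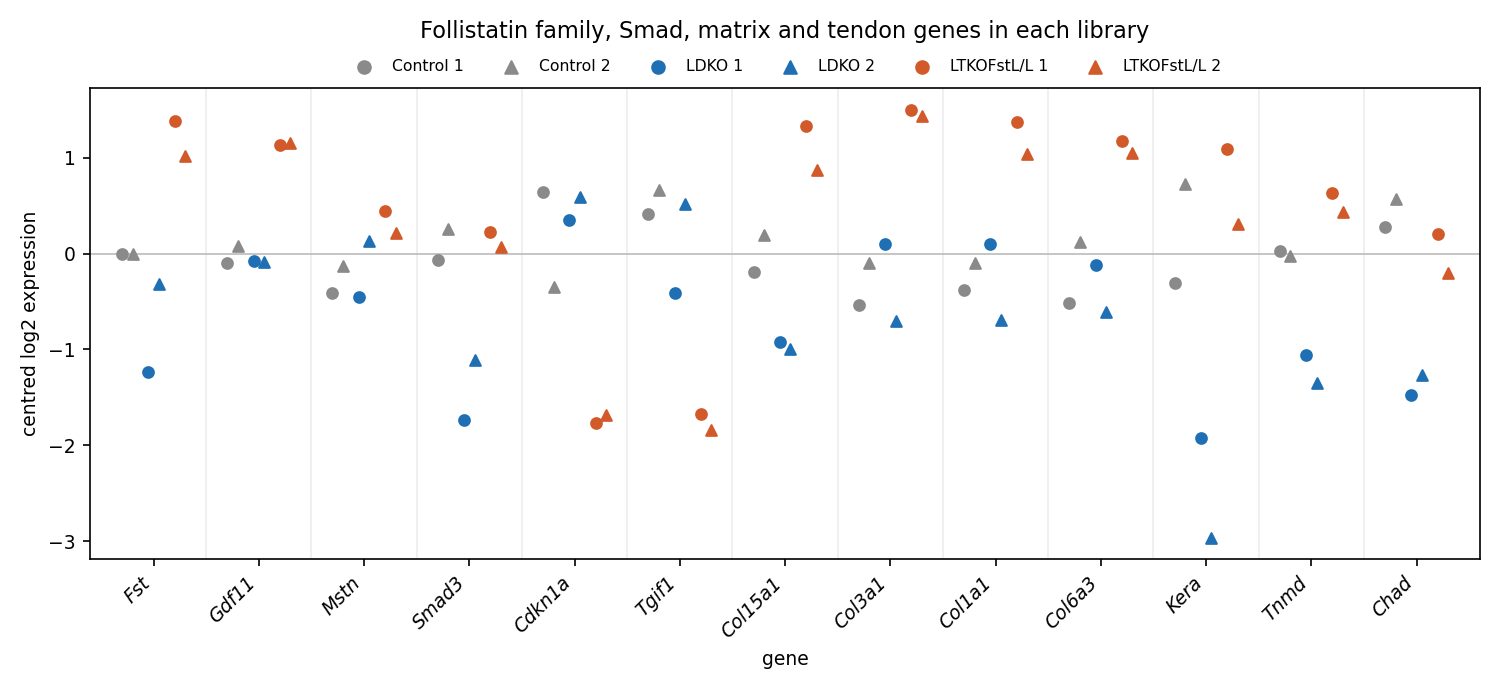
Centred log2 expression on the y axis in each of the 6 libraries, by gene on the x axis, with circles for replicate 1 and triangles for replicate 2. Fst was highest in LTKOFstL/L, Smad3, Kera, Tnmd and Chad were low in LDKO, and Cdkn1a and Tgif1 were low in LTKOFstL/L.

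Several genes of muscle protein breakdown were lower in LTKOFstL/L muscle. Of 30 tested atrophy ubiquitin ligases, FoxO factors and FoxO-regulated genes, 7 fell and 1 rose, and the median change was −0.6. In 22 of the 30 both LTKOFstL/L libraries lay below both LDKO libraries, which held for 24.2% of all tested genes. Trim63 (ENSMUSG00000028834, chromosome 4, 134315120 to 134329629, plus strand), which encodes the ubiquitin ligase MuRF1 of the sarcomere, stood at 0.82 and 0.71 in LDKO, −2.45 and −2.51 in LTKOFstL/L and 0.55 and −0.55 in Control. The LTKOFstL/L libraries were far below the rest, and the change was −3.24 ± 0.32 (adjusted p = 0.00963). Fbxo32 (ENSMUSG00000022358, chromosome 15, 58175879 to 58214932, minus strand) encodes atrogin-1, the other classical ligase of muscle wasting. It stood at 0.56 and 0.69 in LDKO, −1.99 and −2.31 in LTKOFstL/L and 0.3 and −0.3 in Control, and fell by 2.78 ± 0.22 (adjusted p = 0.00455). The remaining falls were in the sestrin gene Sesn1 (−2.87 ± 0.35, adjusted p = 0.0154), in Ddit4 and Eif4ebp1, which code for a brake on mTORC1 and for a repressor of translation under its control, and in the transcription factor genes Klf15 and Foxo3. Ddit4 changed by −2.59 ± 0.35 (adjusted p = 0.0199), Eif4ebp1 by −1.76 ± 0.32 (0.0416), Klf15 by −1.56 ± 0.24 (0.0265) and Foxo3 by −1.33 ± 0.21 (0.0297). Foxo6, a FoxO family member, went the other way. It stood at −0.01 and 0.01 in LDKO against 2.39 and 2.1 in LTKOFstL/L and rose by 2.25 ± 0.27 (adjusted p = 0.0123).

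Klhl38, a kelch-repeat gene, fell by 2.90 ± 0.31 (adjusted p = 0.012). It lies on chromosome 15 at 58314573 to 58324169, in a row with Fbxo32, and a predicted gene, Gm15943, overlaps both on the opposite strand. The deposited values do not say whether reads were assigned by strand, so reads of these 3 genes may be shared. Of the 31 tested proteasome subunits 0 passed in limma, with a median change of −0.29 and 27 negative changes. In 17 of the 31 both LTKOFstL/L libraries lay below both LDKO libraries, against 24.2% of all tested genes. Psmd11 at −0.60 ± 0.14 (adjusted p = 0.0731) and Psmd4 at −0.64 ± 0.19 (0.136) had the smallest p.

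The number of atrophy genes that fell was 4 without LDKO 1, 6 without LDKO 2, 1 with LTKOFstL/L 1 left out and 2 with LTKOFstL/L 2 left out, while with a single prior or the spline trend it was 1. Under the spline trend the adjusted p was 0.0684 for Trim63 and 0.0701 for Fbxo32. Fbxo32 passed in all 4 of these left-out fits (adjusted p = 0.0031, 0.0032, 0.0261 and 0.0284). Trim63 had 0.0613 without LDKO 1 and 0.0506 without LTKOFstL/L 1, and passed without LDKO 2 (0.0438) and LTKOFstL/L 2 (0.0467), while its change stayed between −3.3 and −3.19. Sesn1 had an adjusted p of 0.075 to 0.0794 in these fits. With LTKOFstL/L 1 left out, the adjusted p was 0.106 for Ddit4, 0.214 for Eif4ebp1, 0.0776 for Klf15, 0.12 for Foxo3, 0.0976 for Foxo6 and 0.0517 for Klhl38. With LTKOFstL/L 2 left out it was 0.069, 0.151, 0.137, 0.165, 0.0658 and 0.0587, in that order. Eif4ebp1 also failed without LDKO 1 (0.152) or LDKO 2 (0.0716).

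The promoter of Trim63 is shown because it holds the FoxO site GTAAACA, the core that FoxO factors bind. The 250 bases before the start of the gene (RefSeq, GRCm38.p6, chr4:134314870-134315119, plus strand) carry it on the opposite strand, in capitals, 194 bases before the start.
Trim63: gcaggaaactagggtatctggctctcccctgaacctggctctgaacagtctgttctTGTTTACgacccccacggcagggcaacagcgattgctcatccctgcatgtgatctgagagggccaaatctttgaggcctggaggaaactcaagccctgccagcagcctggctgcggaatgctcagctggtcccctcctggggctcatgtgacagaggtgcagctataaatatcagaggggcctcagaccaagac
Searched on both strands in windows from 250 bases before to 50 after the start, GTAAACA was present in 3.65% of 32851 windows and in 2.75% of those of tested genes. It was present in 7.1% of 183 windows of fallen genes and in 1.29% of 155 windows of risen genes. Of 10 windows of the atrophy and autophagy genes that fell, 2 held it, those of Trim63 and Sesn1. These matches describe letters in the windows and not binding.

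**Figure D3:**
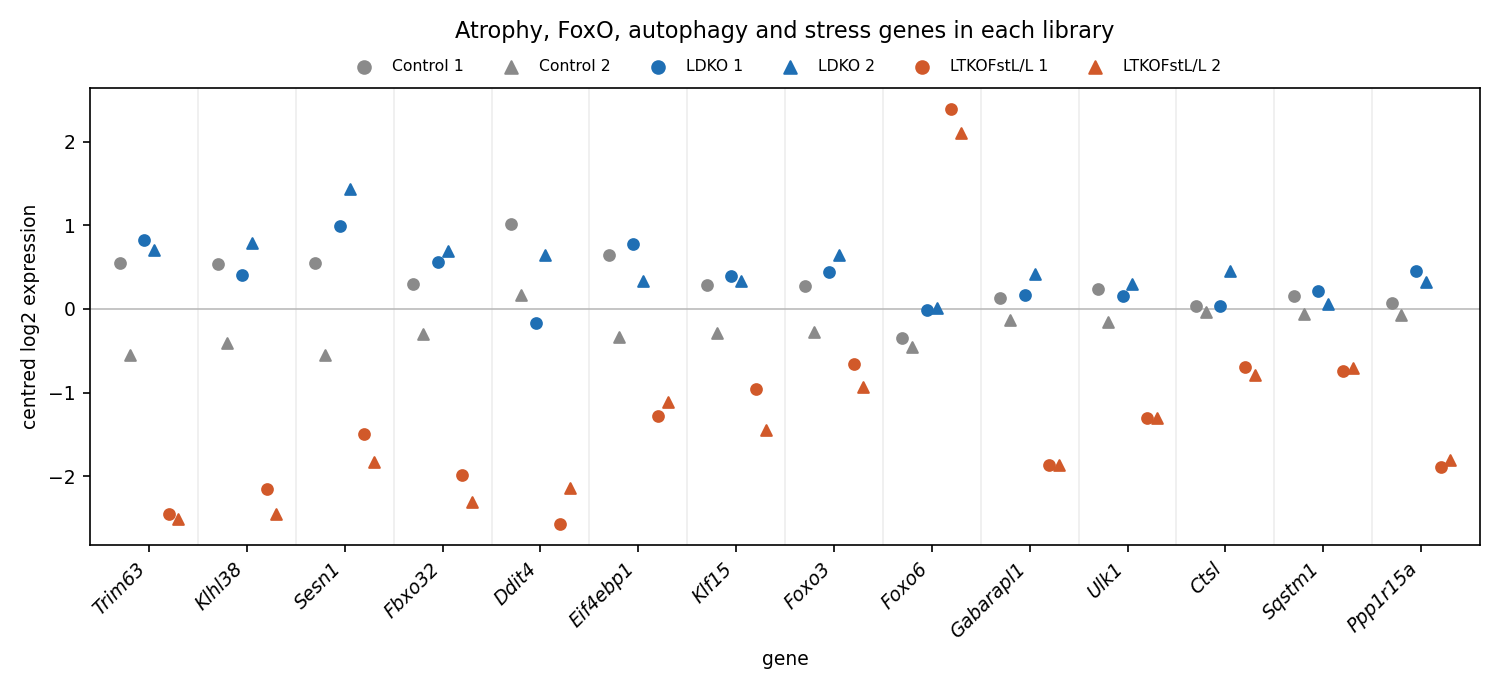
Centred log2 expression on the y axis in each of the 6 libraries, by gene on the x axis, with circles for replicate 1 and triangles for replicate 2. Both LTKOFstL/L libraries lay below all others for each gene shown except Foxo6, where they were highest, and Trim63 reached −2.45 and −2.51.

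Of 24 tested autophagy and lysosome genes 4 fell and 0 rose (median −0.23), against 1.23% and 1.07% of all tested genes. Gabarapl1 (ENSMUSG00000030161, chromosome 6, 129533160 to 129542346, plus strand), an ATG8 family gene of the autophagosome membrane, stood at 0.17 and 0.42 in LDKO, −1.86 and −1.87 in LTKOFstL/L and 0.13 and −0.13 in Control. Its change was −2.16 ± 0.16 (adjusted p = 0.00401), and the LTKOFstL/L libraries lay far below the 4 others. The gene 1700101I11Rik, which also fell, overlaps it on the opposite strand. Ulk1, the kinase that starts autophagy, fell by 1.53 ± 0.17 (adjusted p = 0.0124). Ctsl, a lysosomal protease gene, fell by 0.99 ± 0.17 (0.0388), and Sqstm1, which encodes the cargo receptor p62, fell by 0.87 ± 0.15 (0.0355). With LTKOFstL/L 1 or LTKOFstL/L 2 left out Gabarapl1 passed (0.038 and 0.0284) and the 3 others did not (0.0845 and 0.0794 for Ulk1, 0.202 and 0.209 for Ctsl, 0.231 and 0.188 for Sqstm1). Sqstm1 also failed without LDKO 1 (0.058), and Gabarapl1 failed under the spline trend (0.0747). Of 25 tested ATF4 stress response genes 1 fell (median −0.17), against 1.23% of all tested genes. This was Ppp1r15a, which encodes GADD34, the phosphatase subunit that ends the block of translation. It stood at 0.45 and 0.32 in LDKO, −1.89 and −1.81 in LTKOFstL/L and 0.07 and −0.07 in Control, and changed by −2.23 ± 0.14 (adjusted p = 0.00228, and 0.0686 under the spline trend). Cebpb, a stress-responsive transcription factor gene, changed by −0.73 ± 0.16 (0.0734).

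A few genes of fatty acid use were lower in LTKOFstL/L muscle. Of 46 tested fatty acid use and PPAR target genes 4 fell and 0 rose, the median change was −0.34, and 38 changes were negative. Acot1 (ENSMUSG00000072949, chromosome 12, 84009490 to 84018371, plus strand), a cytosolic acyl-CoA thioesterase, stood at 0.41 and 0.52 in LDKO, −3.37 and −3.34 in LTKOFstL/L and 0.3 and −0.3 in Control. The change was −3.82 ± 0.21 (adjusted p = 0.00212), a 14.1-fold lower scaled level in LTKOFstL/L, whose 2 libraries agreed closely. Acot2, its mitochondrial relative, lies 15616 bases upstream and fell by 2.44 ± 0.18 (adjusted p = 0.00354). The pair is similar in sequence, so the counting may have split reads between them. Plin5, a lipid droplet protein that ties droplets to mitochondria, fell by 1.35 ± 0.15 (0.0123), and Mlycd, whose enzyme removes malonyl-CoA, fell by 0.85 ± 0.16 (0.0464). Acot1 and Acot2 passed without each of the 4 libraries, while Plin5 (0.0845 and 0.0887) and Mlycd (0.283 and 0.19) failed when LTKOFstL/L 1 or 2 was left out, and Mlycd also without LDKO 1 (0.0782). Under the spline trend 0 of the 46 genes passed in limma, with an adjusted p of 0.0705 for Acot1 and 0.0813 for Acot2.

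Of 33 tested lipid synthesis genes 3 rose, 1 fell and 29 did not pass, with a median of 0.45 that ran from 0.35 without LDKO 1 to 0.8 without LDKO 2. Fasn stood at −0.36 and −0.08 in LDKO, 4.62 and 2.35 in LTKOFstL/L and −0.49 and 0.08 in Control. Both LTKOFstL/L libraries were above the rest but differed from each other, and the change was 3.70 ± 0.64 (adjusted p = 0.0358). Pnpla3, a lipase-like gene of lipid droplets, rose by 2.43 ± 0.45 (0.0404), and Mlxipl, which encodes the carbohydrate-responsive factor ChREBP, rose by 0.78 ± 0.13 (0.0366). Elovl6, a fatty acid elongase, changed by 2.74 ± 0.70 (0.0911), and Thrsp, a lipogenic regulator, by 1.76 ± 0.35 (0.0532), neither of which passed. Acss1, the mitochondrial acetyl-CoA synthetase, stood at 0.97 and 0.89 in LDKO, −1.16 and −1.15 in LTKOFstL/L and 0.21 and −0.21 in Control, and fell by 2.08 ± 0.17 (adjusted p = 0.00473). The count of risen lipid synthesis genes was 0 without LDKO 1, 2 without LDKO 2, 1 with LTKOFstL/L 1 left out and 7 with LTKOFstL/L 2 left out. It was also 0 when only LDKO and LTKOFstL/L were fitted, with a single prior or with no level filter. Fasn had an adjusted p of 0.334 without LDKO 1 and 0.233 without LDKO 2, with changes of 3.56 and 3.85. Its change was 2.57 without LTKOFstL/L 1 and 4.84 without LTKOFstL/L 2. In those fits the spread between the LTKOFstL/L libraries drops out, so they do not test whether Fasn differs. Pnpla3 and Mlxipl failed without LDKO 1 (0.11 and 0.0606), LTKOFstL/L 1 (0.209 and 0.231) or LTKOFstL/L 2 (0.0564 and 0.233).

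Of 12 adipocyte markers 1 rose. All 12 had positive changes, with a median of 1.62 that ran from 1.04 without LDKO 1 to 2.42 without LTKOFstL/L 2, and in 10 both LTKOFstL/L libraries lay above both LDKO libraries, which held for 24.9% of all tested genes. Their mean centred value was 2.11 and 0.68 in LTKOFstL/L, −0.98 and −0.17 in LDKO and −0.43 and −0.17 in Control, so LTKOFstL/L 1 was the highest, as it was for Fasn. Retn, the adipocyte hormone resistin, stood at 3.8 and 2.21 in LTKOFstL/L and −0.45 and 0.07 in LDKO and rose by 3.20 ± 0.51 (adjusted p = 0.0248). Retn did not pass with LDKO 1 left out (2.93, 0.0721) or LTKOFstL/L 1 left out (2.4, 0.104). The adiponectin gene Adipoq changed by 1.99 ± 0.40 (0.0531). Ucp1, the uncoupling protein of brown fat, stood at 4.31 and 0.45 in LTKOFstL/L and −2.35 and −3.21 in LDKO, a change of 5.16 ± 1.18 that did not pass (0.0687). In bulk tissue, more cells of a type and more RNA per cell cannot be told apart, and the part of fat cells in the lipid synthesis values was not tested.

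**Figure D4:**
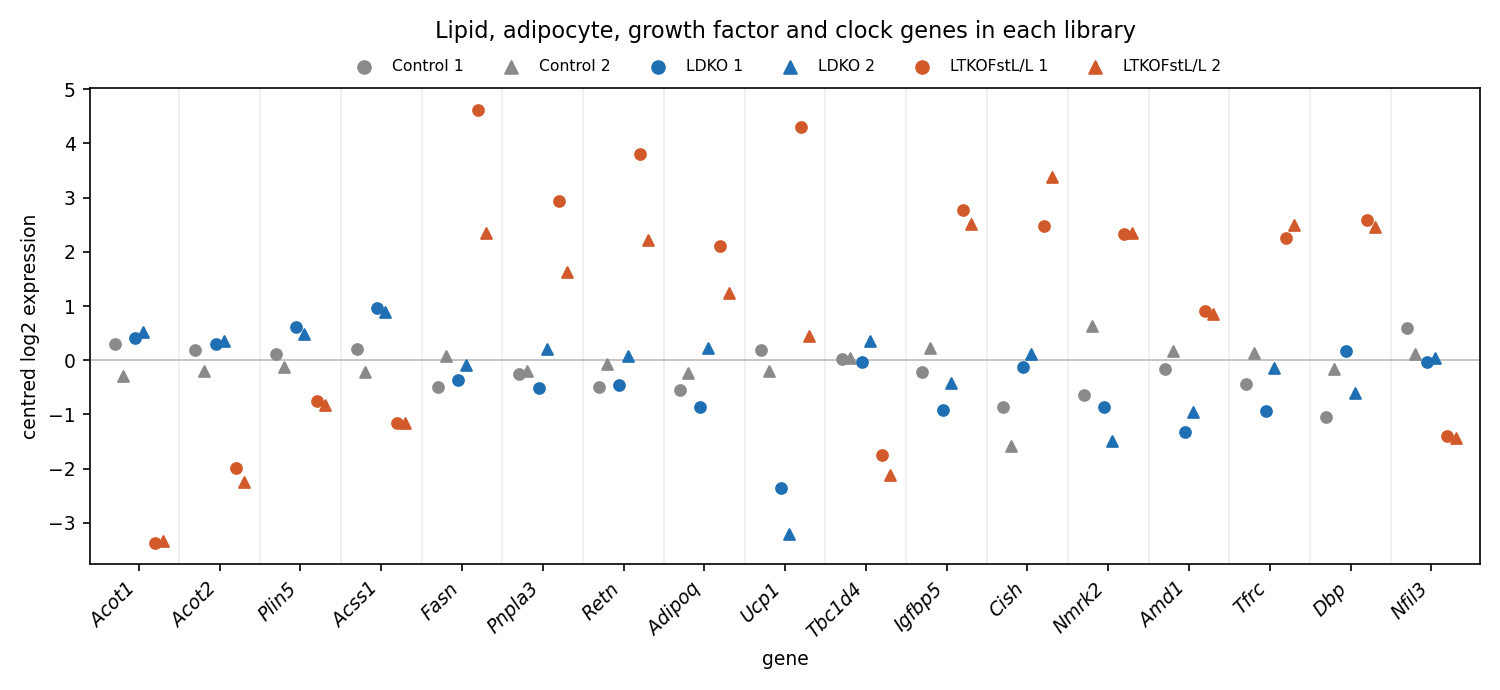
Centred log2 expression on the y axis in each of the 6 libraries, by gene on the x axis, with circles for replicate 1 and triangles for replicate 2. Acot1 lay at −3.37 and −3.34 in the LTKOFstL/L libraries, while Fasn, Pnpla3, Retn, Adipoq and Ucp1 were each higher in LTKOFstL/L 1 than in LTKOFstL/L 2.

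Of 34 tested insulin signalling genes 1 passed, near the 2.3% of all tested genes, and the median change was −0.04. Tbc1d4 (ENSMUSG00000033083, chromosome 14, 101442360 to 101609191, minus strand) encodes AS160, the Akt substrate that gates GLUT4 traffic to the cell surface. It stood at −0.03 and 0.36 in LDKO, −1.75 and −2.11 in LTKOFstL/L and 0.03 and 0.04 in Control, and fell by 2.10 ± 0.19 (adjusted p = 0.00714), a call that held without each of the 4 libraries but not with a single prior (0.0598) or the spline trend (0.102). The hexokinase gene Hk2 changed by 0.86 ± 0.17 (adjusted p = 0.0502). Among 12 IGFs, receptors and binding proteins 2 rose and 0 fell (median 0.16). Igfbp5 (ENSMUSG00000026185, chromosome 1, 72857932 to 72874884, minus strand), the main IGF-binding protein of muscle, stood at −0.92 and −0.42 in LDKO, 2.77 and 2.51 in LTKOFstL/L and −0.22 and 0.22 in Control. The change was 3.31 ± 0.23 (adjusted p = 0.00284), and it passed without each of the 4 libraries (adjusted p up to 0.0261). Igfbp7, another binding protein gene, rose by 1.00 ± 0.14 (0.0214), with 0.186 and 0.119 when LTKOFstL/L 1 or 2 was left out. Among 16 growth hormone, Stat5 and Socs genes Cish rose (median 0.27). Cish, a Stat5 target that damps cytokine receptor signalling, stood at −0.12 and 0.12 in LDKO, 2.47 and 3.39 in LTKOFstL/L and −0.86 and −1.59 in Control, with a change of 2.93 ± 0.40 (0.0171). It had an adjusted p of 0.0524 without LTKOFstL/L 1 and 0.0995 without LTKOFstL/L 2. The interleukin-6 receptor gene Il6ra changed by −2.08 ± 0.42 (0.0508).

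Of 14 tested slow fibre genes 2 fell, 0 rose and 12 did not pass. All 14 had negative changes, with a median of −0.49 (−0.74 without LDKO 1), and in 11 the LTKOFstL/L libraries lay below the LDKO libraries, which held for 24.2% of all tested genes. Casq2, a calcium-binding protein of the slow fibre reticulum, stood at 0.92 and 1.06 in LDKO, −0.09 and 0.01 in LTKOFstL/L and −0.01 and −0.14 in Control. LDKO alone was high, and the change was −1.03 ± 0.14 (adjusted p = 0.0204). Tnnt1, the slow troponin T gene, fell by 1.14 ± 0.19 (0.0334). Among 14 fast fibre genes the median was 0.0, and Casq1, the fast fibre counterpart of Casq2, rose by 0.94 ± 0.15 (0.0301). Myh2, the myosin of fast oxidative fibres, changed by −0.52 ± 0.19 (0.209). Among 25 calcium handling and excitability genes 2 rose (median 0.04). These were Jph2, which joins the sarcoplasmic reticulum to the T-tubules (1.17 ± 0.15, adjusted p = 0.0176), and Sypl2, which encodes a triad membrane protein (0.83 ± 0.15, 0.0402). Sln, the sarcolipin gene, changed by −1.74 ± 0.38 (0.0678). Of 29 myogenic, regeneration and denervation genes 1 fell (median −0.2), against 1.23% of all tested genes. This was the denervation-responsive Gadd45a (−1.55 ± 0.24, 0.0284), while Myod1, a myogenic factor, changed by 1.61 ± 0.36 (0.0671). Ky, a gene whose loss causes kyphoscoliosis in mice and whose protein lies at the Z-disc, rose by 2.15 ± 0.29 (0.0199). None of Casq2, Tnnt1, Casq1, Jph2, Sypl2, Gadd45a and Ky passed without LTKOFstL/L 1 (adjusted p = 0.169, 0.203, 0.189, 0.135, 0.201, 0.0767 and 0.106) or LTKOFstL/L 2 (0.119, 0.163, 0.184, 0.106, 0.24, 0.138 and 0.0936). Ky failed without either LDKO library as well (0.0763 and 0.0601), and Sypl2 without LDKO 2 (0.0521).

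Of 21 tested clock genes 2 rose and 3 fell, with a median of 0.15. Dbp, a clock output transcription factor, stood at 0.17 and −0.61 in LDKO, 2.59 and 2.45 in LTKOFstL/L and −1.04 and −0.17 in Control, and rose by 2.74 ± 0.39 (adjusted p = 0.0195). Bhlhe41, a repressor that acts in the core clock, rose by 1.96 ± 0.24 (0.0151). Nfil3, a repressor that opposes Dbp at shared sites, stood at −0.04 and 0.04 in LDKO against −1.4 and −1.44 in LTKOFstL/L and fell by 1.42 ± 0.18 (0.0176). The core repressors Cry2 and Per1 fell by 0.89 ± 0.16 (0.0454) and 0.80 ± 0.14 (0.0428). The time of day at which tissue was taken is not given in the sources used here. No clock gene passed without LTKOFstL/L 1 or without LTKOFstL/L 2, where adjusted p ranged from 0.0794 for Bhlhe41 to 0.253 for Per1. Per1 and Cry2 also failed without LDKO 2 (0.055 and 0.0537). Of 24 immediate early genes Maff and Mafk, small Maf factors, fell by 1.80 ± 0.26 (0.0215) and 1.21 ± 0.18 (0.0228), with a list median of −0.17. Neither passed without LTKOFstL/L 1 (0.0748 and 0.131) or LTKOFstL/L 2 (0.116 and 0.147).

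Windows before RefSeq starts of Bhlhe41 and Per1 are shown because they hold the E-box CACGTG that the clock activators bind. These 250 bases (RefSeq, GRCm38.p6) lie at chr6:145865421-145865670 on the minus strand and chr11:69098699-69098948 on the plus strand, with the E-box in capitals 153 and 166 bases before the start. The RefSeq start used for Bhlhe41 lies 138 bases downstream of the GENCODE start, so 138 bases of its window are inside the GENCODE gene. Per1 has 2 RefSeq windows, and the start of the one shown lies 3732 bases downstream of the GENCODE start, so that all 250 bases are inside the GENCODE gene.
Bhlhe41: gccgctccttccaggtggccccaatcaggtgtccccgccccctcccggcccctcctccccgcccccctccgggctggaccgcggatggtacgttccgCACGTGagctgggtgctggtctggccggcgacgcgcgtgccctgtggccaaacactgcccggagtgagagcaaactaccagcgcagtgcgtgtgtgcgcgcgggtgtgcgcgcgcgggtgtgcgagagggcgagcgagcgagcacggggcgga
Per1: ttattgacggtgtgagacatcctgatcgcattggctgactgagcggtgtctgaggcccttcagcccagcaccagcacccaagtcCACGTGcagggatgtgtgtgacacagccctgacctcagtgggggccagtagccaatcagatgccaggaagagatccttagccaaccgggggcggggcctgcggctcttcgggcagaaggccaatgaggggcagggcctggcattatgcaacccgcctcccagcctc
The E-box reads the same on both strands. It was present in 7.15% of all 32851 windows and 9.33% of those of tested genes, and in 2 of 6 windows of the 5 clock genes that rose or fell. One of these genes rose and the other fell.

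Several collagen genes were higher in LTKOFstL/L muscle. Of 41 tested collagen and matrix genes 8 rose and 0 fell, with a median of 0.56, and in 26 both LTKOFstL/L libraries lay above both LDKO libraries, which held for 24.9% of all tested genes. Col3a1, a fibrillar collagen of the connective tissue sheaths, stood at 0.1 and −0.7 in LDKO, 1.5 and 1.43 in LTKOFstL/L and −0.54 and −0.1 in Control. The LTKOFstL/L libraries alone were high, and the change was 1.77 ± 0.28 (adjusted p = 0.028). Col15a1, a basement membrane collagen, rose by 2.06 ± 0.30 (0.0199), Col1a1 by 1.5 ± 0.27 (0.0433), Col6a3 by 1.47 ± 0.25 (0.0355), Col6a2 by 1.46 ± 0.25 (0.0356) and Col1a2 by 1.33 ± 0.18 (0.0204). The fibrillin gene Fbn1 rose by 1.18 ± 0.19 (0.0307) and Sparc, a collagen-binding matrix protein gene, by 0.90 ± 0.14 (0.0284). The count of risen matrix genes was 12 without LDKO 1 and 9 without LDKO 2, but 0 when LTKOFstL/L 1 or LTKOFstL/L 2 was left out, 0 when the prior was not split by level and 2 under the spline trend. Without LTKOFstL/L 1 the change of Col3a1 was 1.74 (adjusted p = 0.153) and that of Col1a2 was 1.22 (0.146).

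Of 12 fibroblast and tendon markers 3 rose. All 12 had positive changes, with a median of 0.35 that ran from 0.32 without LTKOFstL/L 1 to 0.6 without LDKO 2, and their mean centred value was −0.62 and −0.69 in LDKO, 0.34 and 0.0 in LTKOFstL/L and 0.05 and 0.32 in Control. Kera, a tendon and corneal proteoglycan gene, stood at −1.92 and −2.96 in LDKO, 1.09 and 0.31 in LTKOFstL/L and −0.31 and 0.72 in Control and rose by 3.14 ± 0.49 (adjusted p = 0.0236). Tnmd, which encodes tenomodulin of tendon, rose by 1.74 ± 0.27 (0.0228), and Chad, which encodes chondroadherin of cartilage and tendon, by 1.37 ± 0.19 (0.0207). For all 3 LDKO was lowest, with LTKOFstL/L overlapping Control for Kera, above it for Tnmd and below it for Chad. None of these 3 passed without LTKOFstL/L 1 (0.169, 0.179 and 0.141) or LTKOFstL/L 2 (0.0924, 0.119 and 0.0654). The part of connective tissue in the collagen values was not tested.

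In the other cell marker lists 0 genes passed in limma. The median change was 0.36 over 17 macrophage and leukocyte markers, −0.08 over 11 endothelial, 0.5 over 11 Schwann cell, 0.3 over 10 smooth muscle and pericyte, 0.14 over 5 erythrocyte and −0.7 over 10 hepatocyte markers. Single libraries moved these medians, from 0.0 without LDKO 2 to 0.6 without LDKO 1 for the macrophage and leukocyte markers and from 0.19 without LDKO 1 to 0.85 without LDKO 2 for the Schwann cell markers. The erythrocyte median ran from −0.19 without LDKO 2 to 0.47 without LDKO 1. The hepatocyte median ran from −1.03 without LTKOFstL/L 2 to −0.36 without LTKOFstL/L 1 and the endothelial median from −0.13 without LTKOFstL/L 1 to 0.02 without LDKO 1. Both LTKOFstL/L libraries lay below both LDKO libraries in 8 of the 10 hepatocyte markers, against 24.2% of all tested genes. They lay above in the other 2, Hp and Cyp2e1, and in 6 of the 10 smooth muscle and pericyte markers, against 24.9%. Pancreatic acinar genes, which should be absent from muscle, had mean centred values of 0.98 and −1.28 in LDKO, −1.92 and −1.88 in LTKOFstL/L and 11.85 and 7.85 in Control. Over 24 of them the median change was −1.65 (−0.52 without LDKO 1 and −3.15 without LDKO 2) and 0 passed, and Ctrb1 and Cela2a were listed at the floor in both LTKOFstL/L libraries. Leaving these genes out of the fit gave 192 higher and 228 lower genes, and all 393 calls were kept. The values of the other genes stay as deposited in that fit, and only the variance priors and the adjustment change. It therefore cannot show how the acinar RNA bears on the Control values.

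A few genes of polyamine, NAD and iron handling were higher in LTKOFstL/L muscle. Among 15 tested polyamine genes 3 rose and 0 fell (median 0.01). Amd1, whose enzyme makes the decarboxylated S-adenosylmethionine used for spermidine and spermine, stood at −1.33 and −0.96 in LDKO, 0.91 and 0.86 in LTKOFstL/L and −0.17 and 0.17 in Control. LDKO was below and LTKOFstL/L above Control, and the change was 2.03 ± 0.19 (adjusted p = 0.00714). Amd2, a near-identical copy, gave 2.01 ± 0.16 (0.00455), and reads may be shared between the copies. Smox, the spermine oxidase gene, rose by 1.45 ± 0.20 (0.0204). Without LTKOFstL/L 1, Amd1 had an adjusted p of 0.0524 and Smox 0.0767, and without LTKOFstL/L 2 they had 0.0454 and 0.119. Among 33 energy dissipation and PGC-1 genes 1 rose (median 0.18), against 1.07% of all tested genes. This was Nmrk2, the nicotinamide riboside kinase of muscle. It stood at −0.86 and −1.49 in LDKO, 2.33 and 2.34 in LTKOFstL/L and −0.64 and 0.64 in Control, with a change of 3.50 ± 0.40 (0.0129). Its adjusted p lay between 0.0606 and 0.082 with any of the 4 libraries left out. Tfrc, the receptor for iron-loaded transferrin, rose by 2.91 ± 0.30 (0.0104), and had 0.0564 without LTKOFstL/L 2. Of 32 interferon-inducible genes 1 rose (list median 0.31), against 1.07% of all tested genes. This was Ifi27l2a, which changed by 2.28 ± 0.31 (0.0199). It had 0.0944 without LTKOFstL/L 1.

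Outside the lists, most of the largest changes were in genes of low level. Slc39a7, a zinc transporter gene of the secretory pathway, stood at −1.02 and 0.21 in LDKO, 4.03 and 4.18 in LTKOFstL/L and −1.15 and −0.21 in Control and rose by 4.51 ± 0.47 (adjusted p = 0.00825). Rtkn2 rose by 5.57 ± 0.71 (0.0135), Rab6b, a Golgi GTPase gene, by 4.96 ± 0.64 (0.0135), Triqk by 4.45 ± 0.71 (0.0228) and Lrrn3 by 3.37 ± 0.66 (0.0439), of which Triqk failed without LDKO 1 (0.0799) and Lrrn3 without LDKO 1 (0.122) or LDKO 2 (0.0545). None of these 5 passed without LTKOFstL/L 1 (0.0685, 0.106, 0.0896, 0.178 and 0.238, in that order) or LTKOFstL/L 2 (0.0594, 0.0853, 0.0982, 0.108 and 0.184). Aarsd1, which is related to alanyl-tRNA synthetase, had the smallest adjusted p of all. It stood at 0.42 and 0.0 in LDKO, −3.93 and −3.94 in LTKOFstL/L and 0.2 and 0.0 in Control, and fell by 4.14 ± 0.18 (adjusted p = 0.000935). A predicted gene, Gm27029, overlaps Aarsd1 on the same strand, so part of its reads could be assigned to either. Tmem140, a membrane protein gene, fell by 2.68 ± 0.15 (0.00212). The gene 3110062M04Rik, which also fell (−2.61), overlaps Tmem140 on the opposite strand, so reads may be shared between them. Fam131c (−5.98 ± 0.89, 0.0199), Kif28 (−3.84 ± 0.66, 0.0297), Aph1c, a gamma-secretase subunit gene (−3.25 ± 0.63, 0.0435), the antisense transcripts Plet1os (−4.38 ± 0.72, 0.025) and AC165164.2 (−4.49 ± 0.76, 0.0284), and the pseudogene Nudc-ps1 (−3.97 ± 0.72, 0.0355) fell too. None of these 6 passed without LTKOFstL/L 1 (0.0758, 0.133, 0.231, 0.104, 0.16 and 0.231) or LTKOFstL/L 2 (0.119, 0.174, 0.2, 0.162, 0.177 and 0.113), nor without LDKO 1 (0.0742, 0.0846, 0.112, 0.0825, 0.0872 and 0.111), and Fam131c alone passed without LDKO 2 (0.0336). Plet1os and AC165164.2 overlap Plet1 and Lrrc20 on the opposite strand, and Slc39a7 and Kif28 overlap Gm20427 and Ahctf1 on the same strand, so reads may be shared there too. The lincRNA AC159106.2 and the crystallin gene Cryba1 passed as lower and were listed at the floor in both LTKOFstL/L libraries, so no fold is given. Neither passed without LTKOFstL/L 1 (0.104 and 0.258) or LTKOFstL/L 2 (0.0936 and 0.231), and Cryba1 failed without LDKO 1 (0.147) or LDKO 2 (0.0731).

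Rsc1a1 had the largest fitted rise and lies inside another gene that fell. It was listed at the floor in both LDKO and both Control libraries and stood at 7.85 and 8.0 above the floor in LTKOFstL/L (adjusted p = 0.00264), so no fold is given. Rsc1a1 (chromosome 4, 141683851 to 141685599, minus strand) lies within Ddi2 (141677549 to 141723419, same strand), a proteasome-linked protease gene. Ddi2 stood at 0.0 and 0.5 in LDKO, 0.0 and 0.24 in Control and −1.18 and −1.33 in LTKOFstL/L, and fell by 1.5 ± 0.20 (0.0193). Ddi2 had 0.102 without LTKOFstL/L 1 and 0.116 without LTKOFstL/L 2. How reads of the shared stretch were assigned is not given in the sources used here.

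Chromosome 4 held 36 passing genes among 1035 tested, 3.48% against 2.3% of all tested genes. It had the highest share of the autosomes, followed by chromosome 6 with 2.95%. On X the share was 1.18%, and on Y 1 of 10 tested genes passed. Whether chromosome 4 differs from the others was not tested. Within 10 Mb of Fst, 2 of 63 tested genes passed in limma, and within 5 Mb 0 of 34 did. Both groups carry floxed Irs1 and Irs2. Within 10 Mb of Irs1, 9 of 154 tested genes passed, which is 5.84% and includes Igfbp5 and Col6a3, and within 5 Mb 1 of 58 did. Within 10 Mb of Irs2, 2 of 102 passed, Retn and its neighbour Fcor, and within 5 Mb 0 of 54 did.

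Several lists held no gene that passed in limma. Among 34 glycolysis and glycogen genes the median was 0.13, and Eno1 at 0.75 ± 0.17 (adjusted p = 0.0775) and Pgm2 at 0.59 ± 0.14 (0.0799) had the smallest p. Among 54 oxidative phosphorylation subunits, all at a log2 level of at least 8 in every library, the median was −0.03 and changes ran from −0.33 to 0.61, the largest being that of Cycs, the cytochrome c gene. Among 24 heat shock genes and chaperones the median was −0.03, and Hspa8, the constitutive Hsp70, changed by −0.65 ± 0.14 (0.0713).

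List medians near 0 changed sign with a library left out. The Smad list ran from −0.36 without LDKO 1 to 0.17 without LDKO 2, the immediate early genes from −0.47 to 0.17 in the same order, and the oxidative phosphorylation subunits from 0.19 without LDKO 1 to −0.2 without LDKO 2.

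**Figure D5:**
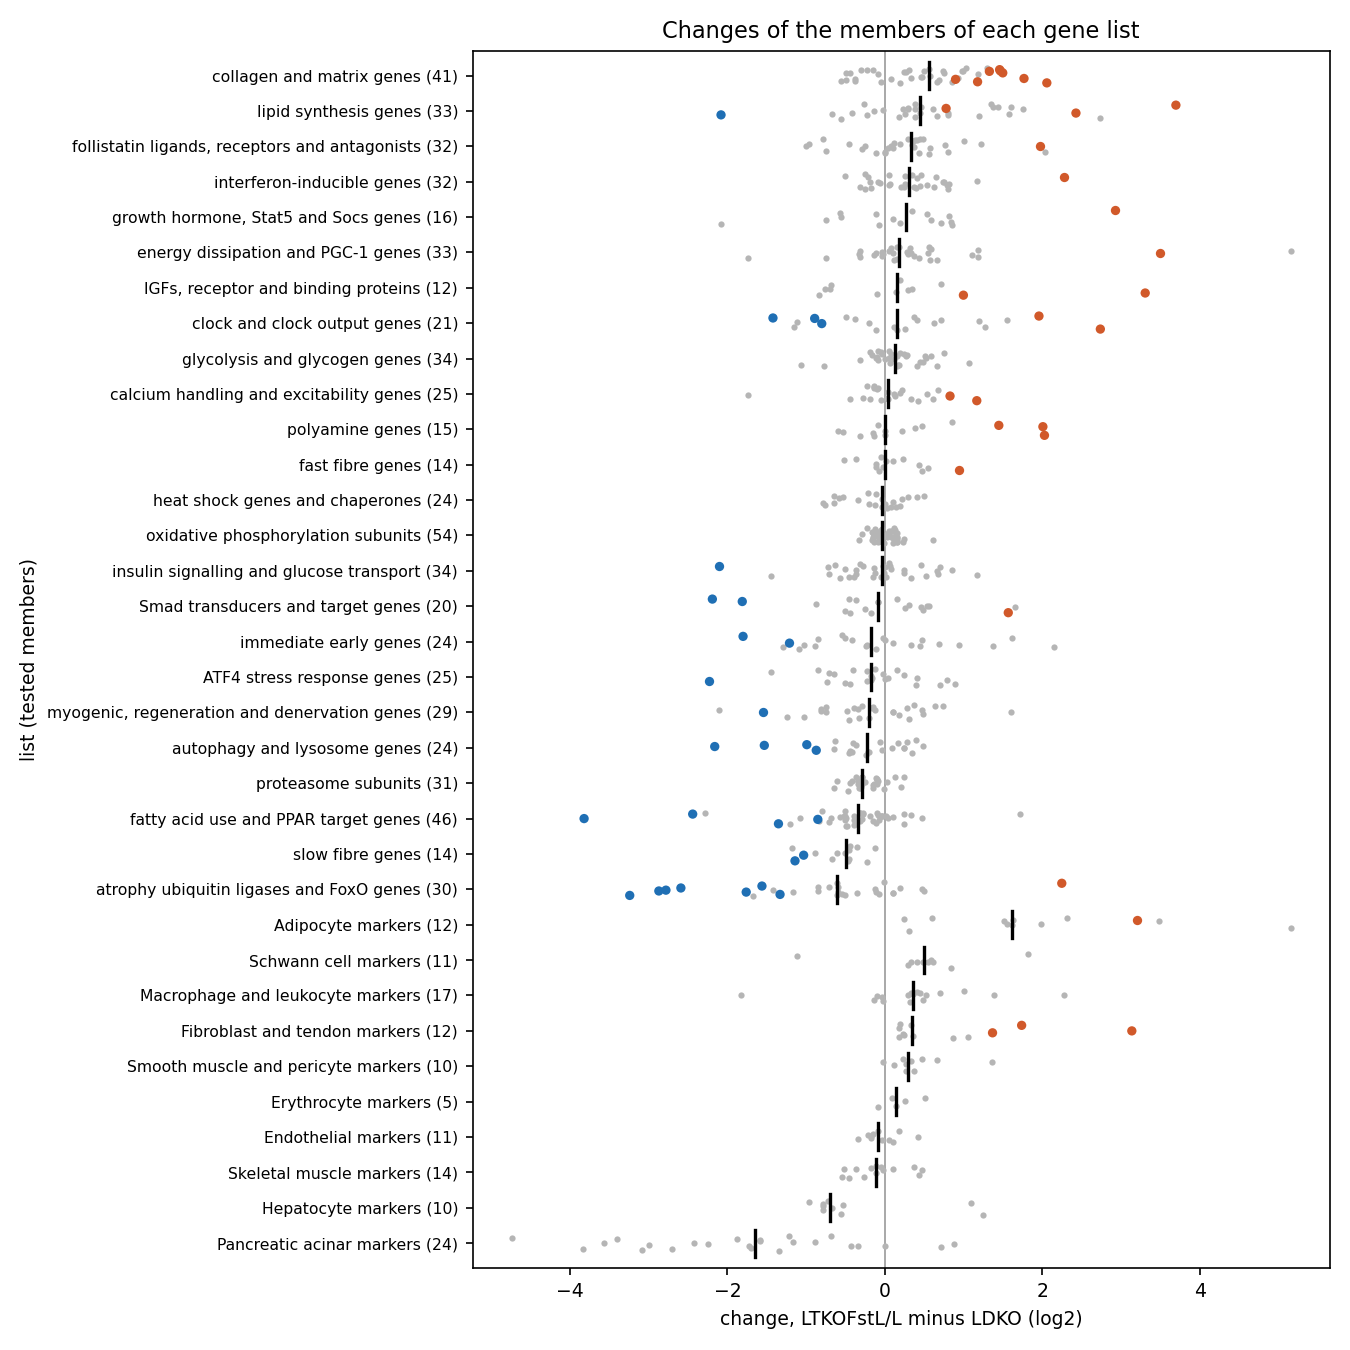
Each row is a gene list with its number of tested members, and each point is a member at its log2 change of LTKOFstL/L against LDKO, orange where it rose, blue where it fell and grey where it did not pass. Black bars are list medians, from −1.65 for the pancreatic acinar markers to 1.62 for the adipocyte markers.

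The authors' deposited table for this comparison lists 2421 genes, 1182 higher and 1239 lower, each with at least a 2-fold change and a corrected p of at most 0.05. Of the 393 genes that passed here 312 are in the authors' deposited table, all with the same sign. That is 79.4% of the genes that passed here and 12.9% of those listed by the authors' deposited table, of which 1529 were tested here. Of the 393 genes, 312 had at least a 2-fold change, so the fold limit of the authors' list bounds the 79.4%. Both lists come from the same libraries, so the shared sign is not independent evidence.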

How the data were processed

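The mRNA libraries of male mouse skeletal muscle were made from total RNA extracted with TRI Reagent, using a SMARTer mRNA kit, per the labels' protocols. The submitters' processing notes name mm10 as the genome build, and for the aligner, counting and scaling the sources used here give nothing. The authors deposited log2 values of 53342 Ensembl genes. Their pattern shows scaled reads per library, floored at 1, taken to log2 and centred on each gene's median over 6 libraries. The authors' deposited list for this comparison gives p-values and log2 differences, and was used for a count of shared genes. Other deposited lists were not used here.

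Levels before centring were recovered from ties at the floor or bracketed from the rounding of the stored 32-bit numbers, so a level is approximate. Tested were genes with a log2 level of at least 4 in at least 2 libraries. A model with a mean for each genotype took in the 6 libraries together (limma 3.58.1, R 4.3.3, 3 residual degrees of freedom). Robust variance priors were set in 3 strata of the lowest library's recovered level (log2 under 4, 4 to 8, 8 or more), because the centred values themselves hold no level. A spline trend of the prior over the recovered level was possible too and was run as an alternative. Tests were two-sided, with Benjamini-Hochberg adjustment over every tested gene. The method was run on simulated data that took their spread from this same fit, so the simulation cannot show which prior suits the real libraries. Of the tested genes 17065 matched GENCODE M21 (GRCm38), which gave coordinates.

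The comparison, the gene lists, the strata and the alternatives were chosen with earlier results of these data known, so no list is independent evidence. Named are the targeted genes, the 10 largest rises and falls, the 8 largest at high level, the 10 smallest adjusted p, up to 4 passing members of each list (or the 2 of smallest p) and the members of the follistatin list, which are mostly given as a range. Foxo6, Klf15, Foxo3, Eif4ebp1, Col6a2, Col1a2, Sparc, Fbn1, Per1, Tirap, Ddi2, Ucp1, Elovl6 and Thrsp were named after their values had been seen, where the rule did not name them. A few genes are not reported here and were left out of the lists. Replicate numbers are not said to pair the libraries, so the main fit had no block. Alternatives were other priors, filters, scalings and sets of libraries.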

Additional observations from a re-analysis of the deposited data

How the results depend on the processing

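Against 182 higher and 211 lower genes, the fit gave 122 and 142 when only the groups compared were fitted, 22 and 31 under a single prior, 117 and 91 with a spline trend, 92 and 105 with no level filter, 207 and 268 at a level of at least 8, 182 and 217 with re-centred libraries and 192 and 228 without the acinar genes. Leaving out 1 library gave 11 to 397 higher and 22 to 292 lower genes. The 393 genes kept their direction in each setting in which they were tested (300 at a level of at least 8). None of these settings could have reversed them. Their LTKOFstL/L and LDKO libraries did not overlap, and settings that keep all 4 of these libraries leave the change the same or nearly so. The call was kept by 49 genes under a single prior and by 239 when only the groups compared were fitted. It was kept by 157 with a spline trend and 189 with no level filter. Irs1, at −0.05, ranged from −0.43 to 0.33 with a library left out and reversed to 0.33 without LDKO 2 (adjusted p = 0.319) and to 0.09 without LTKOFstL/L 2 (adjusted p = 0.936). The causes were not tested. With the replicate block 122 genes were higher and 148 lower, and 254 calls were kept. Deviations of same-numbered libraries correlated over genes at 0.184 for Control and LDKO and −0.0413 for Control and LTKOFstL/L. For LDKO and LTKOFstL/L the correlation was −0.177. These values do not settle whether the numbers pair the libraries, which the labels do not state. With the pairing of LTKOFstL/L crossed, an alternative chosen after seeing the data, 819 genes were higher and 825 lower. Total depth is unknown, and genes at a log2 level under 4 in their lowest library, with a median SE of 0.764 against 0.169 at 8 or more, limit what can be seen for low genes.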
